A study of Mus musculus with 32 samples.

Results

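Cells in which RNA interference (RNAi) had been directed against Pou5f1 or Nanog were set together against cells given the empty parental vector. There were 4 arrays of Pou5f1 RNAi, 5 arrays of Nanog RNAi and 5 vector arrays, 14 of the 32 samples of the series. All 3 groups were E14TG2a cells, a mouse embryonic stem (ES) cell line, given a pSUPER-puro construct by lipid transfection. From 24 h after transfection the cells were kept in puromycin at 1 µg/ml for 3 days, and their RNA was read on Affymetrix mouse arrays. The labels name 1 construct for each knockdown and no RNAi against an unrelated target, so a response to any short hairpin and a response to the loss of both factors cannot be told apart. The labels do not say whether the arrays of a group came from separate cultures, so the p-values measure the spread between these arrays. The mean of the Pou5f1 RNAi and Nanog RNAi group means minus the vector mean, called the pooled change here, was taken for 45037 probe sets, the short DNA sets that each report 1 transcript, after 64 control probe sets had been set aside. Genes were then sorted by whether the knockdowns moved them the same way or in opposite directions.

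Pou5f1 (also called Oct4) and Nanog are homeodomain transcription factors that hold ES cells in the undifferentiated state. They bind many genes together, often beside Sox2, and some of those genes encode the factors themselves. In the mouse embryo, cells without Pou5f1 turn toward trophectoderm, the layer that builds the placenta, while loss of Nanog is known for release of cells toward primitive endoderm, the layer that lines the yolk sac.

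Values are log2 levels on which a step of 1 is a change of 2-fold. A difference was called when its p-value from limma, a linear model fitted to all probe sets and 14 arrays, was under 0.05 after Benjamini-Hochberg adjustment. Pou5f1 read 9.19, 9.21, 8.73 and 9.01 in Pou5f1 RNAi cells, 11.24, 11.21, 11.18, 11.47 and 11.51 in Nanog RNAi cells, and 11.34, 11.31, 11.46, 11.51 and 11.48 in vector cells. Its level was thus low on the 4 Pou5f1 RNAi arrays, while the Nanog RNAi and vector arrays overlapped. Nanog read 9.82, 9.75, 9.57 and 9.64 in Pou5f1 RNAi cells, 9.16, 9.14, 9.26, 9.40 and 9.47 in Nanog RNAi cells, and between 11.003 and 11.19 in vector cells. All 9 knockdown arrays lay below the 5 vector arrays for Nanog. Pou5f1 changed by -2.38 ± 0.10 (SE) in Pou5f1 RNAi and by -0.10 ± 0.10 in Nanog RNAi, the second with a limma adjusted p of 0.61. Nanog fell in both, by 1.40 ± 0.09 in Pou5f1 RNAi and by 1.81 ± 0.08 in Nanog RNAi. The pooled set therefore holds Nanog lowered on all 9 arrays and Pou5f1 lowered on 4 of them.

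Over single genes, each read by the probe set of highest mean level, the pooled change was called for 6163 of 18161 genes (33.9%), of which 3338 were higher (18.4%) and 2825 lower (15.6%) in the knockdowns. Against vector, Pou5f1 RNAi called 40.2% of genes (20.6% higher, 19.5% lower) and Nanog RNAi 20.9% (12.1% higher, 8.77% lower). Both comparisons use the same 5 vector arrays, so a chance shift of the vector mean moves them together, and the overlap of their calls was not tested. The pooled call was often carried by Pou5f1 RNAi. Among the 6163 genes, 2406 were called in both knockdowns, 3111 in Pou5f1 RNAi alone, 546 in Nanog RNAi alone and 100 in neither. In 3595 of them the Pou5f1 RNAi change was at least 2 times that of Nanog RNAi, and in 507 the reverse held. The group means of the knockdowns lay on the same side of vector for 5199 of the 6163 genes and on opposite sides for 964. Over all probe sets, called or not, the group means moved the same way in 29750 (66.1%) and opposite ways in 15287. Because both changes subtract the same vector mean, chance alone makes the same direction the more frequent one. The pooled call favours it further, and neither count was set against a chance level.

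Genes called in each knockdown fell into 4 classes, which the plot of the changes in each knockdown shows. There were 1234 genes higher in both (6.79% of all genes) and 1005 lower in both (5.53%). Another 201 genes were higher in Pou5f1 RNAi and lower in Nanog RNAi (1.11%), and 346 were lower in Pou5f1 RNAi and higher in Nanog RNAi (1.91%). The arrays of the knockdowns and of vector did not overlap at all for 879, 702, 109 and 235 genes of these classes in turn. Called or not, 935 (5.15%), 759 (4.18%), 126 (0.69%) and 271 (1.49%) of all genes had arrays apart in these directions. Being called already favours such separation, so these counts are a description. The median changes of the genes higher in both were 0.79 in Pou5f1 RNAi and 0.46 in Nanog RNAi. The genes lower in both had medians of -0.67 in Pou5f1 RNAi and -0.42 in Nanog RNAi. These values chose the classes and are a description; over all genes the medians were -0.04 and -0.02.

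**Figure D1:**
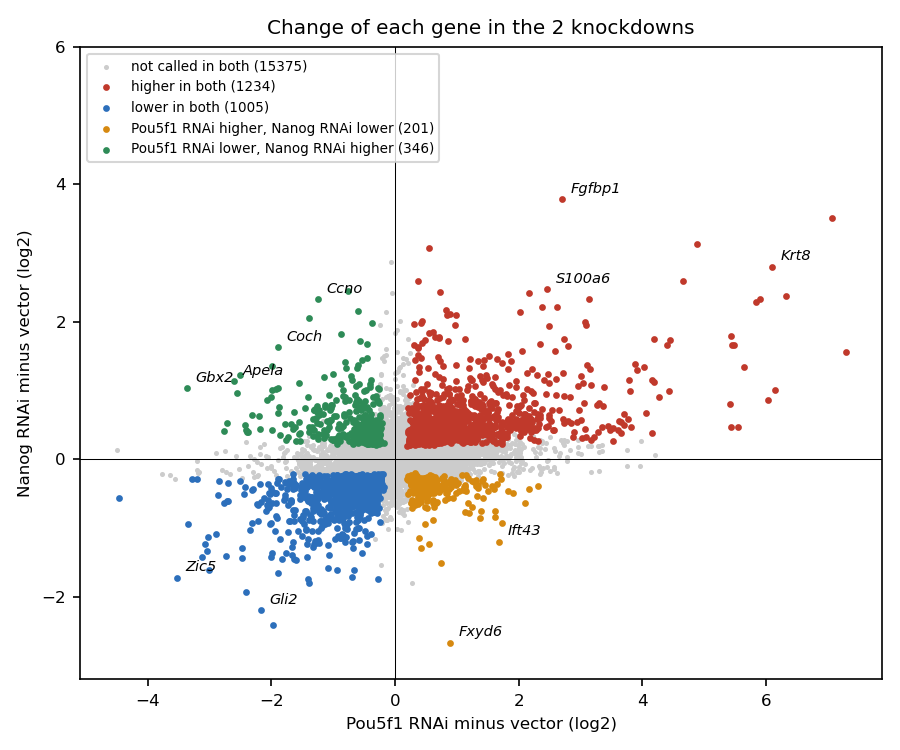
Change of each of the 18161 genes in Pou5f1 RNAi against vector (horizontal axis, log2) and in Nanog RNAi against vector (vertical axis, log2). Coloured points are the 4 classes called in both knockdowns, with gene counts in the legend, and grey points are all others; the widest changes lie at the upper right, where Krt8 sits at 6.10 and 2.80.

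By construction the pooled change adds changes of the same direction and offsets opposite ones, so the counts that follow are a description. All 1234 genes higher in both and all 1005 genes lower in both were also called in the pooled comparison. Of the 201 genes higher in Pou5f1 RNAi and lower in Nanog RNAi, 53 were called higher, 7 were called lower and 141 were not called when the knockdowns were pooled. Of the 346 genes lower in Pou5f1 RNAi and higher in Nanog RNAi, 29 were called higher, 78 lower and 239 not at all. A change of at least 1 log2 in each knockdown was met by 85 genes higher in both, 47 lower in both, 1 higher in Pou5f1 RNAi and lower in Nanog RNAi, and 13 of the reverse kind.

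Ranked by the smaller of their changes, among genes whose arrays did not overlap vector and leaving out clone names, the genes higher in both were led by Vgll3, Krt8, Fgfbp1, Anxa3, S100a6, Igf2, Krt18, Gpat3, Nrk, Perp, Bhmt and Id3. Krt8, a keratin of simple epithelia, read between 13.12 and 13.27 on the Pou5f1 RNAi arrays, between 9.69 and 10.26 on the Nanog RNAi arrays and between 6.92 and 7.17 on the vector arrays. The 3 groups stood apart with wide gaps, and the pooled change was 4.45 ± 0.08, a 21.9-fold rise (limma adjusted p = 1.0e-18). Its filament partner Krt18 rose by 5.90 in Pou5f1 RNAi and 2.33 in Nanog RNAi. Vgll3, a cofactor of TEAD transcription factors, read 8.38, 8.26, 8.53 and 8.43 in Pou5f1 RNAi cells, 6.65, 6.56, 6.58, 6.51 and 6.97 in Nanog RNAi cells, and 3.55, 3.64, 3.43, 3.39 and 3.58 in vector cells. All 9 knockdown arrays thus lay far above the vector arrays, the Pou5f1 RNAi ones highest. Igf2, an imprinted growth factor of the fetus and placenta, rose by 6.32 in Pou5f1 RNAi and by 2.37 in Nanog RNAi. Nrk, a kinase gene of the placenta, rose by 5.84 in Pou5f1 RNAi and by 2.28 in Nanog RNAi. The membrane binding protein gene Anxa3, the lipid enzyme gene Gpat3 and the methyl transfer enzyme gene Bhmt rose by 4.66, 3.14 and 2.62 in Pou5f1 RNAi and by 2.59, 2.33 and 2.21 in Nanog RNAi.

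Some genes higher in both rose by nearly the same amount. S100a6, a calcium-binding protein gene, read 9.62, 9.65, 9.78 and 9.61 in Pou5f1 RNAi cells and 9.75, 9.67, 9.58, 9.68 and 9.66 in Nanog RNAi cells, against 6.90, 7.42, 7.37, 6.94 and 7.36 in vector cells. The knockdown arrays interleaved, and the difference between knockdowns was -0.01, with a 95% confidence interval from -0.22 to 0.21. Perp, a gene of desmosomes and of the p53 response, differed by 0.15 between Pou5f1 RNAi and Nanog RNAi, with an interval from -0.03 to 0.33. For Id3, an inhibitor of basic helix-loop-helix factors that BMP signals induce, the difference was -0.11, with an interval from -0.30 to 0.08. These intervals leave room for differences of the sizes they span. Fgfbp1, which releases fibroblast growth factors from the matrix, was the 1 gene of the 12 leading ones called with a larger change in Nanog RNAi. It read between 7.999 and 8.39 in Pou5f1 RNAi cells, between 9.08 and 9.40 in Nanog RNAi cells and between 5.25 and 5.72 in vector cells, and the knockdowns differed by -1.07 (limma adjusted p = 4.3e-08).

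**Figure D2:**
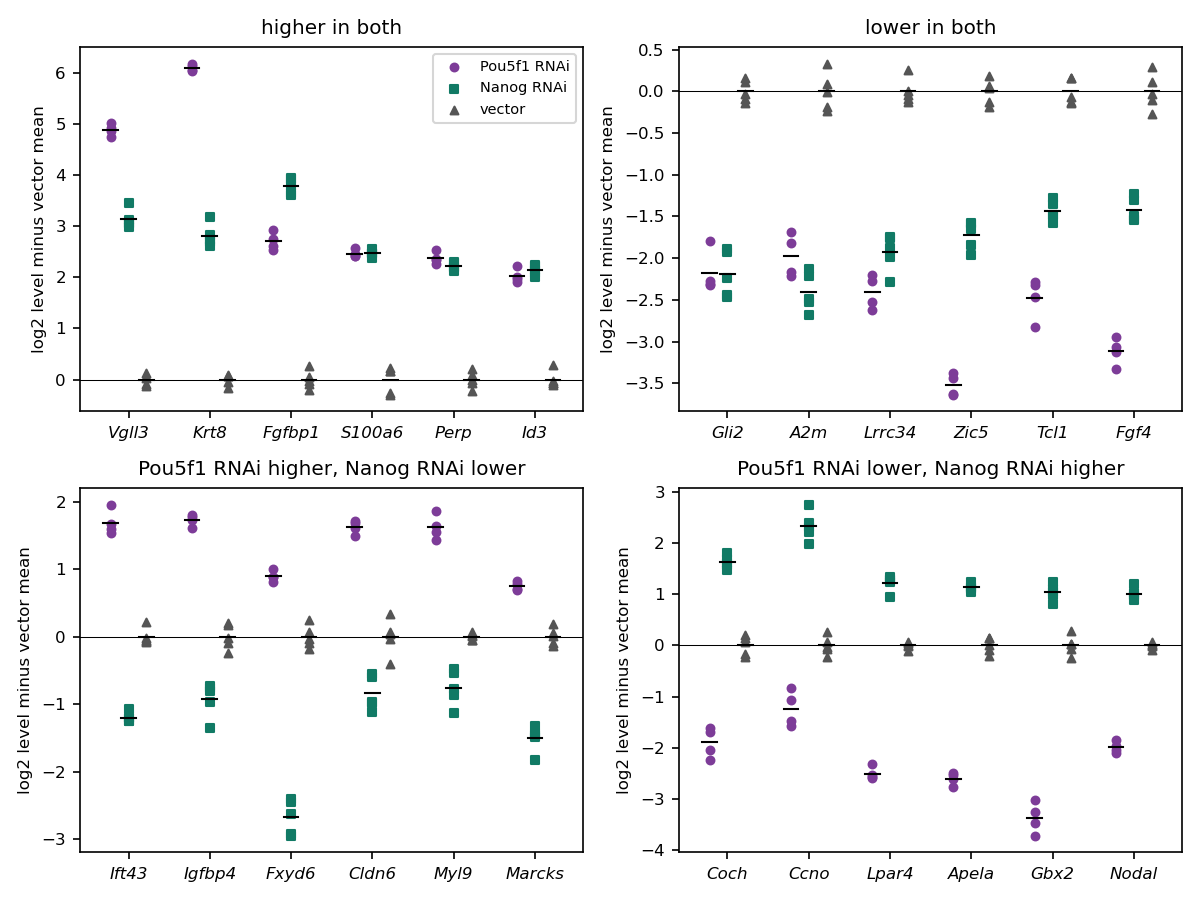
Log2 level of 6 genes of each class on every array, less the gene's vector mean, with Pou5f1 RNAi as circles, Nanog RNAi as squares, vector as triangles and group means as short bars. S100a6 and Id3 show overlapping knockdown groups above vector, while Gbx2, Apela and Nodal lie below vector in Pou5f1 RNAi and above it in Nanog RNAi.

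The genes lower in both were led by Gli2, A2m, Lrrc34 and Zic5. Gli2, a transcription factor of Hedgehog signalling, read 5.90, 6.41, 5.89 and 5.94 in Pou5f1 RNAi cells and 6.28, 5.98, 5.77, 5.75 and 6.31 in Nanog RNAi cells, against 8.07, 8.12, 8.32, 8.17 and 8.37 in vector cells. The knockdown groups overlapped each other and lay well under vector, and the pooled change was -2.18 ± 0.11 (limma adjusted p = 3.2e-12). Zic5, a zinc finger factor gene, read 4.17, 4.36, 4.15 and 4.42 in Pou5f1 RNAi cells, 6.20, 5.95, 6.22, 5.83 and 6.14 in Nanog RNAi cells, and 7.98, 7.61, 7.86, 7.67 and 7.84 in vector cells. Here the knockdowns stood apart too, by -1.80 (limma adjusted p = 8.9e-12). Fgf4, the growth factor that ES cells make for themselves, read between 6.18 and 6.57 in Pou5f1 RNAi cells, between 7.98 and 8.29 in Nanog RNAi cells and between 9.25 and 9.80 in vector cells. Tcl1, a coactivator of the kinase Akt, fell by 2.48 in Pou5f1 RNAi and by 1.43 in Nanog RNAi. A2m, which encodes a protease inhibitor, fell by 1.97 in Pou5f1 RNAi and by 2.41 in Nanog RNAi. The remaining leaders Lrrc34, Actn3, Mcf2, Fut9, Slc6a15, Cobl and Mymx fell by between 1.60 and 3.01 in Pou5f1 RNAi and by between 1.43 and 1.93 in Nanog RNAi. Fut9 makes the carbohydrate that ES cells show as the SSEA-1 antigen.

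The difference between knockdowns, which uses no vector array, was called for 6793 genes (37.4%), of which 3413 were higher (18.8%) and 3380 lower (18.6%) in Pou5f1 RNAi than in Nanog RNAi. Of the 1234 genes higher in both, 678 were called with a larger change in Pou5f1 RNAi, 80 with a larger change in Nanog RNAi and 476 were not called. Of the 1005 genes lower in both, 433 changed more in Pou5f1 RNAi, 57 more in Nanog RNAi and 515 were not called. The plot of these differences with their intervals shows that Igf2 (3.95), Krt18 (3.57) and Nrk (3.55) had the widest gaps among the 12 leading genes that were higher in both. Among the leading genes lower in both, Gli2, Actn3, Fut9 and Cobl had intervals that crossed 0. The called differences of Bhmt (0.41), A2m (0.44) and Slc6a15 (-0.37) were lost with 1 array left out, for any of 6, 2 and 10 arrays in turn.

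**Figure D3:**
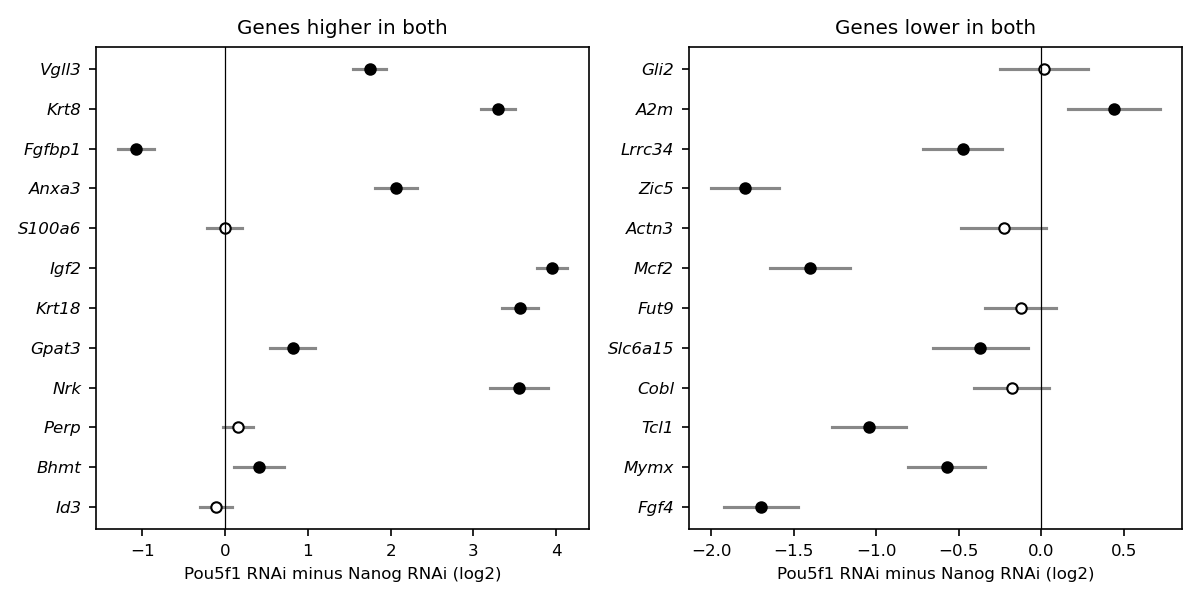
Difference between Pou5f1 RNAi and Nanog RNAi (log2, points) with 95% confidence intervals (lines) for the 12 leading genes of each shared class; filled points had a limma adjusted p under 0.05. S100a6, Perp and Id3 on the left and Gli2, Actn3, Fut9 and Cobl on the right are the open points.

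The genes higher in Pou5f1 RNAi and lower in Nanog RNAi were led by Ift43, Igfbp4, Fxyd6 and Eif4g3. Ift43, a gene of transport in cilia, read 8.34, 8.28, 8.70 and 8.41 in Pou5f1 RNAi cells, 5.50, 5.53, 5.49, 5.54 and 5.68 in Nanog RNAi cells, and 6.67, 6.70, 6.68, 6.72 and 6.97 in vector cells. Vector thus lay between the knockdowns without overlap, and the changes were 1.68 in Pou5f1 RNAi and -1.20 in Nanog RNAi. Its pooled change was 0.24 (limma adjusted p = 0.020), which was not called with the 9 knockdown arrays weighted equally (0.08, limma adjusted p = 0.51) or without vector array 1 or 3 (limma adjusted p = 0.055 and 0.057). Fxyd6, which regulates the sodium pump, had the strongest fall in Nanog RNAi of the 10 leading genes. It read between 8.998 and 9.18 in Pou5f1 RNAi cells, between 5.23 and 5.79 in Nanog RNAi cells and between 7.997 and 8.43 in vector cells. Cldn6, a tight junction claudin, changed by 1.62 in Pou5f1 RNAi and by -0.84 in Nanog RNAi, and Myl9, a myosin light chain gene, by 1.62 in Pou5f1 RNAi and by -0.76 in Nanog RNAi. Marcks, which ties actin to the membrane, changed by 0.75 in Pou5f1 RNAi and by -1.51 in Nanog RNAi. The insulin-like growth factor binding protein gene Igfbp4 changed by 1.73 in Pou5f1 RNAi and by -0.92 in Nanog RNAi. Eif4g3, Dusp16, Scd1 and Septin9 changed by between 1.14 and 1.38 in Pou5f1 RNAi and by between -0.85 and -0.76 in Nanog RNAi. Of these 4, Dusp16 and Scd1 had pooled changes of 0.20 and 0.18 that were not called (limma adjusted p = 0.082 and 0.15). Both were called in some other settings, given further below. Eif4g3 had a called pooled change of 0.26 (limma adjusted p = 0.045). It was not called with the 9 knockdown arrays weighted equally (0.14, limma adjusted p = 0.34). Leaving out any of 10 single arrays also ended this call (limma adjusted p up to 0.13).

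The genes lower in Pou5f1 RNAi and higher in Nanog RNAi were led by Coch, Car3, Ttn and Ccno, and Gbx2 was among the first 10. Gbx2, a homeobox gene of naive ES cells, read 4.06, 3.84, 3.60 and 4.31 in Pou5f1 RNAi cells, 8.31, 8.36, 8.41, 8.13 and 8.56 in Nanog RNAi cells, and 7.34, 7.36, 7.59, 7.07 and 7.24 in vector cells. Its changes were -3.37 in Pou5f1 RNAi and 1.03 in Nanog RNAi, the widest gap between knockdowns of the 20 leading opposite genes (-4.40 ± 0.13). Apela, which encodes a peptide ligand of the apelin receptor, read 5.59, 5.75, 5.84 and 5.87 in Pou5f1 RNAi cells, 9.48, 9.52, 9.41, 9.50 and 9.61 in Nanog RNAi cells, and 8.16, 8.38, 8.51, 8.28 and 8.50 in vector cells. No array of a group came within the range of another group for either gene. Coch, a matrix protein gene known from the inner ear, changed by -1.90 in Pou5f1 RNAi and by 1.63 in Nanog RNAi, which left a pooled change of -0.13 (limma adjusted p = 0.40). Ccno, a cyclin-like gene, changed by -1.24 in Pou5f1 RNAi and by 2.33 in Nanog RNAi, and Lpar4, a receptor for lysophosphatidic acid, by -2.51 in Pou5f1 RNAi and by 1.22 in Nanog RNAi. The lysosomal protein gene Laptm5 changed by -1.15 in Pou5f1 RNAi and by 1.20 in Nanog RNAi, so that the pooled change was 0.02. Car3, Ttn, Uba1y and Mylpf changed by between -1.99 and -1.40 in Pou5f1 RNAi and by between 1.04 and 2.05 in Nanog RNAi. Car3, Ttn and Mylpf are known from skeletal muscle.

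**Figure D4:**
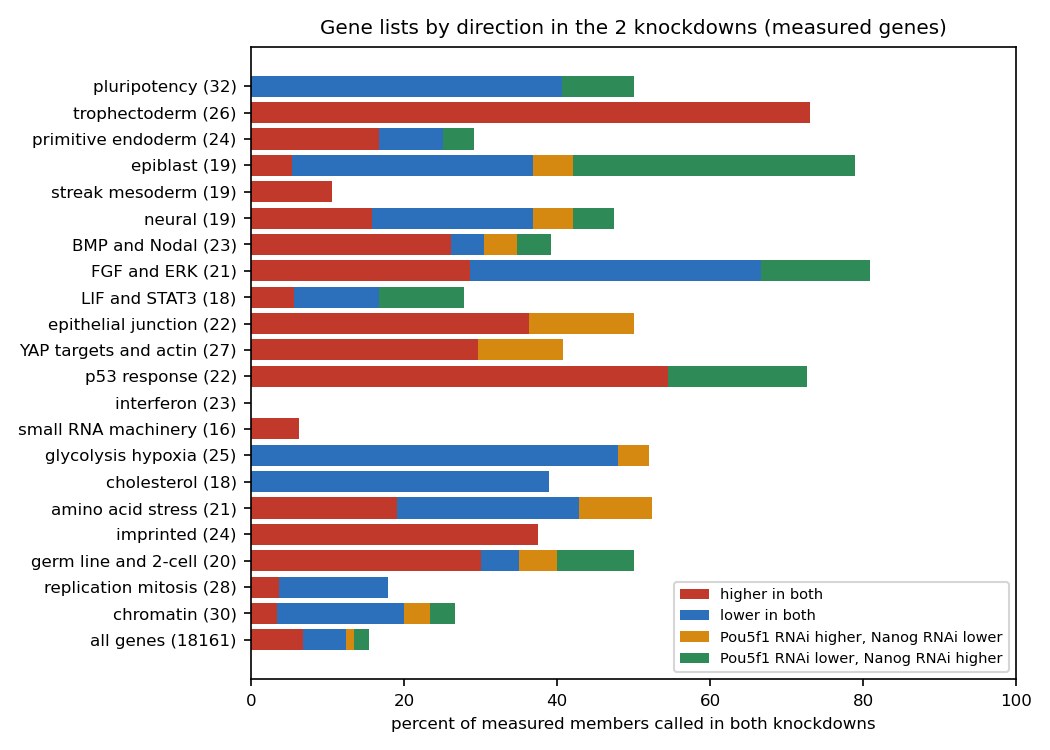
Share of the measured members of 21 gene lists (member counts in brackets) that were called in both knockdowns, split by direction, with all 18161 genes as the bottom bar. The trophectoderm bar is wholly of genes higher in both, and the pluripotency and epiblast bars hold genes lower in both beside genes that moved in opposite directions.

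In the gene lists, members not among the first 4 of their class by the smaller change were chosen after their values were seen. The lists themselves were chosen with earlier results of these data known, and some genes, Krt8 among them, were counted in several lists. The shares of the lists and their ranking are therefore a description and carry no test. Of 32 pluripotency genes, 28 were lower (87.5% against 15.6% of all genes) and 2 higher (6.25% against 18.4%) when pooled. Their median pooled change was -0.74, beside -0.02 over all genes. Lower in both were 13 (40.6% against 5.53% of all genes), and 3 were lower in Pou5f1 RNAi and higher in Nanog RNAi (9.38% against 1.91%). The first group held Tcl1, the Ras-like gene Eras, the repressor gene Prdm14 and Klf4. Eras, Prdm14 and Klf4 fell by 2.48, 1.44 and 1.51 in Pou5f1 RNAi and by 1.30, 1.01 and 0.90 in Nanog RNAi. Sox2, the partner of Pou5f1 on DNA, fell by 1.72 in Pou5f1 RNAi and by 0.32 in Nanog RNAi, and Esrrb, an orphan nuclear receptor gene, by 0.94 in Pou5f1 RNAi and by 0.68 in Nanog RNAi. The opposite group held Dppa3, Sall4 and Fbxo15. Dppa3, a gene of the oocyte and early germ line, changed by -2.01 in Pou5f1 RNAi and by 0.91 in Nanog RNAi. The zinc finger gene Sall4 changed by -0.43 in Pou5f1 RNAi and by 0.46 in Nanog RNAi, so its pooled change was 0.01, and with its most variable probe set the Nanog RNAi change was 0.17 and not called (limma adjusted p = 0.32).

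Among the 21 lists, chosen with earlier results of these data known, trophectoderm genes had the highest share of genes higher in both. Of 26 measured, 19 were higher in both knockdowns (73.1% against 6.79% of all genes). When pooled, 23 were higher (88.5% against 18.4%) and 0 were lower (15.6% of all genes), an adjusted p under 0.05 in limma being required. The median changes were 3.07 in Pou5f1 RNAi and 0.74 in Nanog RNAi. Mbnl3, an RNA-binding protein gene active in placenta, read between 10.30 and 10.69 in Pou5f1 RNAi cells, between 6.51 and 6.89 in Nanog RNAi cells and between 4.70 and 5.15 in vector cells. Peg10, a retrotransposon-derived imprinted gene that placenta needs, read between 8.75 and 9.09 in Pou5f1 RNAi cells, between 5.54 and 7.48 in Nanog RNAi cells and between 4.33 and 4.65 in vector cells. The Nanog RNAi arrays of Peg10 were widely spread but did not reach vector. Cdx2, the factor that defines trophectoderm, averaged 6.51 ± 0.16 (SD, n = 4) in Pou5f1 RNAi cells, 4.76 ± 0.24 (n = 5) in Nanog RNAi cells and 4.16 ± 0.13 (n = 5) in vector cells. Its difference from vector was called in both knockdowns, with limma adjusted p of 8.3e-13 and 0.00035. On the Nanog RNAi and vector arrays the median of all probe sets lay between 4.57 and 4.66, close to these Cdx2 levels. Nanog RNAi array 5 read highest of its group for Cdx2, at 5.19, and the next read 4.72. Hand1 rose by 2.32 in Pou5f1 RNAi, and by 0.27 in Nanog RNAi where its arrays overlapped vector and where leaving out any of 10 single arrays ended the call (limma adjusted p up to 0.13). Eomes rose by 0.42 in Pou5f1 RNAi and by 0.39 in Nanog RNAi, also with overlapping arrays. Elf5, a later trophoblast factor, had a pooled change of 0.17 (limma adjusted p = 0.20) and stayed under 5 on every array. Rhox6, a homeobox gene of placenta in a family of close copies that could share probes, rose by 7.29 in Pou5f1 RNAi and by 1.56 in Nanog RNAi. Krt7 and Plac1 rose by 6.15 and 5.65 in Pou5f1 RNAi and by 1.01 and 1.34 in Nanog RNAi.

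Markers of each cell type were read as their mean log2 level on each array. In bulk RNA a few cells of another type and a small rise in every cell cannot be told apart. The mean of 8 trophectoderm markers ranged from 8.96 to 9.07 on Pou5f1 RNAi arrays, from 6.34 to 6.78 on Nanog RNAi arrays and from 5.33 to 5.39 on vector arrays, with 1 marker under 5 on every array. The mean of 6 ES cell markers ranged from 9.69 to 9.96 on Pou5f1 RNAi arrays, from 11.37 to 11.50 on Nanog RNAi arrays and from 11.61 to 11.78 on vector arrays. The ES cell markers were thus bright in all 3 groups. They were Pou5f1, Sox2, Zfp42, Dppa5a, Utf1 and Tdgf1, and the fall of Pou5f1, a target of the RNAi, was set by the design. When pooled, 6 of 6 were lower (15.6% of all genes), and 3 were called lower in both knockdowns (5.53% of all genes). Of 6 fibroblast collagen and matrix markers, which feeder cells would bring, 0 were called in limma's pooled comparison and 5 lay under 5 on every array. The mean of 6 primitive endoderm markers ranged from 4.62 to 4.66 in Pou5f1 RNAi cells, from 5.32 to 5.59 in Nanog RNAi cells and from 5.00 to 5.21 in vector cells. For 3 mesoderm markers the ranges were 4.83 to 5.06, 4.91 to 5.07 and 4.96 to 5.08 in the same order. For 4 neural markers they were 4.82 to 4.95, 4.56 to 4.93 and 5.13 to 5.20. The part that mixed cell types had in the shared changes was not tested.

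Primitive endoderm genes were divided between the directions. Of 24 measured, 9 were higher (37.5% against 18.4% of all genes) and 9 lower (37.5% against 15.6%) when pooled, with a median of -0.10. The 4 members higher in both were 16.7% of the list against 6.79% of all genes, the 2 lower in both 8.33% against 5.53%, and the 1 lower in Pou5f1 RNAi and higher in Nanog RNAi 4.17% against 1.91%. The 4 higher in both were the basement membrane collagens Col4a1 and Col4a2, the collagen chaperone gene Serpinh1 and the matrix gene Sparc, which other cells make as well. Sparc averaged 10.60 ± 0.09 (SD, n = 4) in Pou5f1 RNAi cells and 10.57 ± 0.08 (n = 5) in Nanog RNAi cells, against 9.99 ± 0.16 (n = 5) in vector cells. The defining factor Gata6 averaged 6.22 ± 0.09 in Pou5f1 RNAi cells, 7.21 ± 0.37 in Nanog RNAi cells and 6.55 ± 0.14 in vector cells. It rose in Nanog RNAi (limma adjusted p = 0.0010), and its pooled change of 0.16 was not called (0.35). Sox17 changed by -1.27 in Pou5f1 RNAi and by 0.60 in Nanog RNAi. Gata4 had a pooled change of -0.17 that was not called (limma adjusted p = 0.19).

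Epiblast genes held the highest share of genes lower in Pou5f1 RNAi and higher in Nanog RNAi among the lists, 7 of 19 (36.8% against 1.91% of all genes). Beside Gbx2 these included Pou3f1, Pim2, Etv4, Foxd3 and Dnmt3l. Pou3f1, a POU factor of the epiblast and nervous system, averaged 6.05 ± 0.18 (SD, n = 4) in Pou5f1 RNAi cells and 7.92 ± 0.16 (n = 5) in Nanog RNAi cells, against 7.28 ± 0.06 (n = 5) in vector cells. Pim2, a survival kinase gene, averaged 5.99 ± 0.03 in Pou5f1 RNAi cells, 8.91 ± 0.12 in Nanog RNAi cells and 8.42 ± 0.06 in vector cells. The groups of both genes did not overlap. Another 6 members were lower in both (31.6% against 5.53% of all genes). Otx2, 1 of these, fell by 4.47 in Pou5f1 RNAi and by 0.56 in Nanog RNAi. The amino acid carrier gene Slc7a3, also lower in both, fell by 3.05 in Pou5f1 RNAi and by 1.33 in Nanog RNAi. Car4 was the 1 member higher in both (5.26% against 6.79% of all genes). Sox4 was the 1 member higher in Pou5f1 RNAi and lower in Nanog RNAi (5.26% against 1.11%). The Pou5f1 RNAi call of Sox4 was lost without Pou5f1 RNAi array 3 (limma adjusted p = 0.061). With the most variable probe set of Sox4, the Pou5f1 RNAi change was 0.37 and not called (limma adjusted p = 0.13).

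Among 23 BMP and Nodal genes, 6 were higher in both (26.1% against 6.79% of all genes) and 1 lower in both (4.35% against 5.53%). The opposite classes held 1 member each (4.35% against 1.11% and 1.91%). Id2 and Id3, targets of BMP signals, were higher in both, Id2 by 1.45 in each knockdown. Id1, of the same family, averaged 8.84 ± 0.11 (SD, n = 4) in Pou5f1 RNAi cells and 10.59 ± 0.12 (n = 5) in Nanog RNAi cells, against 8.98 ± 0.12 (n = 5) in vector cells, so it rose in Nanog RNAi and its Pou5f1 RNAi change was not called (limma adjusted p = 0.25). The BMP target Msx2 rose by 3.31 in Pou5f1 RNAi and by 0.81 in Nanog RNAi, while the ligand gene Bmp4 fell by 0.37 in Pou5f1 RNAi and by 0.41 in Nanog RNAi. Nodal, a ligand of the TGF-beta family, read 7.54, 7.35, 7.30 and 7.44 in Pou5f1 RNAi cells and 10.35, 10.38, 10.29, 10.41 and 10.59 in Nanog RNAi cells, against 9.30, 9.42, 9.41, 9.38 and 9.46 in vector cells. It lay far below vector in Pou5f1 RNAi and about 1 log2 above it in Nanog RNAi. Lefty1, which blocks Nodal, changed by -2.75 in Pou5f1 RNAi and by 0.12 in Nanog RNAi, the second not called (limma adjusted p = 0.48).

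Of 21 FGF and ERK genes, 6 were higher in both (28.6% against 6.79% of all genes), 8 lower in both (38.1% against 5.53%) and 3 lower in Pou5f1 RNAi and higher in Nanog RNAi (14.3% against 1.91%). The ligand gene Fgf4, the ligand gene Fgf15 and the early response gene Egr1 were lower in both, Egr1 by 2.74 in Pou5f1 RNAi and by 1.40 in Nanog RNAi. The receptor gene Fgfr2 rose by 1.49 in Pou5f1 RNAi and by 0.66 in Nanog RNAi. Phlda1 and Myc rose by 2.05 and 1.44 in Pou5f1 RNAi and by 1.57 and 0.90 in Nanog RNAi. The 3 opposite genes were the ERK phosphatase gene Dusp6, the ERK target Etv4 and the feedback inhibitor Spry4. Their changes were -1.16, -1.64 and -2.37 in Pou5f1 RNAi and 0.66, 0.44 and 0.40 in Nanog RNAi. The Nanog RNAi call of Spry4 was lost without Nanog RNAi array 1 or 3 or vector array 2 (limma adjusted p up to 0.07). Spry2 had -1.58 in Pou5f1 RNAi and 0.09 in Nanog RNAi, the second not called (limma adjusted p = 0.53). Of 18 genes of LIF and STAT3 signalling, the pathway that keeps mouse ES cells undifferentiated in culture, 3 were higher (16.7% against 18.4% of all genes) and 9 lower (50% against 15.6%) when pooled. The receptor gene Lifr fell by 2.11 in Pou5f1 RNAi and by 0.56 in Nanog RNAi, and the kinase gene Jak1 rose by 1.84 in Pou5f1 RNAi and by 0.48 in Nanog RNAi. With the most variable probe set of Jak1, the Nanog RNAi change was 0.18 and not called (limma adjusted p = 0.54).

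Of 22 junction genes, 17 were higher when pooled (77.3% against 18.4% of all genes) and 0 lower by limma (15.6% of all genes). Of these genes 8 were higher in both (36.4% against 6.79%) and 3 were higher in Pou5f1 RNAi and lower in Nanog RNAi (13.6% against 1.11%). The keratin gene Krt8 was counted in this list as well as in the trophectoderm list. Dsp, a desmosome plaque gene, rose by 4.20 in Pou5f1 RNAi and by 1.12 in Nanog RNAi. The 3 opposite genes were Cldn6, the plakophilin gene Pkp2 and the protease inhibitor gene Spint2. Pkp2 and Spint2 changed by 1.18 and 0.38 in Pou5f1 RNAi and by -0.64 and -0.66 in Nanog RNAi. Of 27 YAP and actin genes, 22 were higher when pooled (81.5% against 18.4%) and 0 lower by limma (15.6% of all genes). Of these 8 were higher in both (29.6% against 6.79%), and Myl9, Vcl and Cnn2 were higher in Pou5f1 RNAi and lower in Nanog RNAi (11.1% against 1.11%). Vcl, the adhesion protein vinculin, averaged 9.82 ± 0.10 (SD, n = 4) in Pou5f1 RNAi cells and 7.89 ± 0.06 (n = 5) in Nanog RNAi cells, against 8.58 ± 0.10 (n = 5) in vector cells. Ccn1 and Ccn2, matrix genes that YAP is known to induce, had unlike changes. Ccn1 rose by 2.74 in Pou5f1 RNAi and by 1.76 in Nanog RNAi, whereas Ccn2 had changes of -0.07 in Pou5f1 RNAi and 2.87 in Nanog RNAi, the first not called (limma adjusted p = 0.58). The actin-binding gene Tagln rose by 5.43 in Pou5f1 RNAi and by 0.47 in Nanog RNAi.

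Targets of p53 were the list with the highest share higher in both after trophectoderm, 12 of 22 (54.5% against 6.79% of all genes). Phlda3, a p53-induced inhibitor of Akt, averaged 9.92 ± 0.07 (SD, n = 4) in Pou5f1 RNAi cells and 9.70 ± 0.11 (n = 5) in Nanog RNAi cells, against 8.63 ± 0.14 (n = 5) in vector cells. Plk2 rose by 1.18 in Pou5f1 RNAi and by 1.07 in Nanog RNAi, and Mdm2, the ligase that turns p53 over, by 0.94 in Pou5f1 RNAi and by 0.87 in Nanog RNAi. The difference between knockdowns was not called for Phlda3, Plk2, Mdm2 or Perp (limma adjusted p between 0.061 and 0.63), though that of Phlda3 was called with array weights (0.23, limma adjusted p = 0.021). The cell cycle inhibitor gene Cdkn1a rose by 1.54 in Pou5f1 RNAi and by 0.50 in Nanog RNAi, and Pmaip1, which promotes cell death, by 0.49 in Pou5f1 RNAi and by 1.74 in Nanog RNAi. Another 4 members, Gadd45a, Aen, Ei24 and Ddit4l, were lower in Pou5f1 RNAi and higher in Nanog RNAi (18.2% against 1.91%). With its most variable probe set Ddit4l changed by 0.20 in Pou5f1 RNAi, the other direction, and was not called (limma adjusted p = 0.12). Gadd45a averaged 6.43 ± 0.10 in Pou5f1 RNAi cells, 8.06 ± 0.14 in Nanog RNAi cells and 7.48 ± 0.11 in vector cells. Of 23 interferon response genes, 0 were called in both knockdowns, 5 were higher (21.7% against 18.4% of all genes) and 4 lower (17.4% against 15.6%) when pooled, and the median pooled change was 0.02. Of 16 genes of the small RNA machinery, Dgcr8 was the 1 member called in both (6.25% against 6.79% of all genes higher in both), with rises of 1.33 in Pou5f1 RNAi and 0.30 in Nanog RNAi. Its Nanog RNAi call was lost without vector array 1 or 3 (limma adjusted p = 0.051 and 0.053).

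Of 25 glycolysis and hypoxia genes, 12 were lower in both (48.0% against 5.53% of all genes) and 0 were higher in both (6.79% of all genes). The glucose carrier gene Slc2a3 was the 1 member higher in Pou5f1 RNAi and lower in Nanog RNAi (4% against 1.11%). Pdk1, which holds pyruvate out of the mitochondrial cycle, fell by 1.42 in Pou5f1 RNAi and by 1.43 in Nanog RNAi. The glycolytic enzyme gene Pfkp averaged 8.71 ± 0.11 (SD, n = 4) in Pou5f1 RNAi cells and 8.76 ± 0.08 (n = 5) in Nanog RNAi cells, against 10.04 ± 0.15 (n = 5) in vector cells. Egln3, an oxygen sensor gene, fell by 0.95 in Pou5f1 RNAi and by 1.61 in Nanog RNAi. Bnip3, a mitophagy gene, fell by 0.28 in Pou5f1 RNAi, and in Nanog RNAi it fell by 1.75. Of 18 cholesterol synthesis genes, 7 were lower in both (38.9% against 5.53%) and 0 higher when pooled by limma (18.4% of all genes). With each array left out in turn, 5 to 8 were lower in both. Idi1 fell by 0.82 in Pou5f1 RNAi and by 1.20 in Nanog RNAi. Of 21 genes of amino acid supply and the stress response, 5 were lower in both (23.8% against 5.53%), 4 higher in both (19.05% against 6.79%) and 2 higher in Pou5f1 RNAi and lower in Nanog RNAi (9.52% against 1.11%). The serine synthesis genes Phgdh and Psph fell by 0.77 and 1.03 in Pou5f1 RNAi and by 0.71 and 0.64 in Nanog RNAi, while the stress factor gene Atf3 rose by 1.52 in Pou5f1 RNAi and by 0.62 in Nanog RNAi.

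Of 24 imprinted genes, 9 were higher in both (37.5% against 6.79% of all genes) and 0 lower in both by limma (5.53% of all genes). Igf2, Peg10, Cdkn1c and Ascl2 led those higher in both. Cdkn1c, a cell cycle inhibitor gene, rose by 4.04 in Pou5f1 RNAi and by 1.35 in Nanog RNAi. Of 20 genes of the germ line and 2-cell embryo, 13 were higher (65% against 18.4% of all genes) and 3 lower (15% against 15.6%) when pooled. Usp17la, a deubiquitinase gene of a repeated family whose copies could share probes, averaged 9.74 ± 0.08 (SD, n = 4) in Pou5f1 RNAi cells and 10.96 ± 0.07 (n = 5) in Nanog RNAi cells, against 8.85 ± 0.10 (n = 5) in vector cells. Tcstv3, also of the 2-cell embryo, rose by 0.61 in Pou5f1 RNAi and by 1.86 in Nanog RNAi. The helicase gene Ddx4 of germ cells rose by 0.88 in Pou5f1 RNAi and by 1.03 in Nanog RNAi, and the meiosis gene Sycp3 fell by 0.78 in Pou5f1 RNAi and by 1.02 in Nanog RNAi. Stk31 had -0.62 in Pou5f1 RNAi and 1.32 in Nanog RNAi.

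Of 19 neural genes, 3 were higher in both (15.8% against 6.79% of all genes) and 4 lower in both (21.1% against 5.53%), and each opposite class held 1 (5.26% against 1.11% and 1.91%). With each array left out in turn, 2 to 5 were lower in both. The class higher in Pou5f1 RNAi and lower in Nanog RNAi then held 0 to 1, and the other counts held. The neurofilament genes Nefm and Nefl rose by 1.24 and 0.84 in Pou5f1 RNAi and by 1.15 and 1.02 in Nanog RNAi, while Pax6 fell by 1.30 in Pou5f1 RNAi and by 0.72 in Nanog RNAi. Of 19 primitive streak and mesoderm genes, Eomes and Snai1 were the 2 called in both, each higher (10.5% against 6.79%). Snai1, which represses E-cadherin, rose by 1.22 in Pou5f1 RNAi and by 1.16 in Nanog RNAi. Of 28 replication and mitosis genes, 14 were lower (50% against 15.6%) and 3 higher (10.7% against 18.4%) when pooled, and Ccnd1, the cyclin of early cell cycle entry, fell by 2.21 in Pou5f1 RNAi and by 0.89 in Nanog RNAi. Of 30 chromatin genes, 19 were lower (63.3% against 15.6%) and 3 higher (10% against 18.4%) when pooled. Tet1 and Tet2, which oxidise methylated DNA, fell by 2.22 and 1.54 in Pou5f1 RNAi and by 0.67 and 0.88 in Nanog RNAi. With the most variable probe set of Tet1, the Nanog RNAi change was -0.40 and not called (limma adjusted p = 0.068). The Polycomb gene Bmi1 rose by 0.54 in Pou5f1 RNAi and by 1.32 in Nanog RNAi, while Cbx7, a Polycomb gene too, changed by 0.39 in Pou5f1 RNAi and by -0.42 in Nanog RNAi.

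The 18 ratio arrays, which share no array with the knockdowns, gave a separate reading of the same classes. There E14 cells under 0.1 µM retinoic acid (RA), 1% dimethyl sulfoxide (DMSO) or 3 mM hexamethylene bisacetamide (HMBA), chemicals that drive ES cells to differentiate, were compared with untreated cells on days 2, 4 and 6. Each treatment had 6 arrays, 1 for each of 2 dye orientations on each day, and the untreated cells served as the common reference, whose own spread the test leaves out. No label states the base of the log, which was taken as 2. Arrays of the same orientation correlated at 0.394 to 0.887 over all probes, and arrays of opposite orientations at -0.182 to 0.661, with -0.0133 to 0.661 for the 9 pairs of the same treatment and day. Of the 1234 genes higher in both knockdowns, 949 were measured there. In RA 47.8% of them were called higher, against 17.7% of the 11092 genes on both platforms; in DMSO the shares were 26.7% and 11.3%, and in HMBA 47.7% and 16.3%. The 772 measured genes that were lower in both were called lower in 29.1% of cases in RA, 25.0% in DMSO and 36.5% in HMBA, against 10.5%, 8.51% and 12.6% of all genes.

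The opposite classes were called more often in the direction of their Pou5f1 RNAi change than in that of their Nanog RNAi change. On the RNAi arrays the Pou5f1 RNAi change was the larger one in 145 of the 201 genes and in 209 of the 346. The Nanog RNAi change was the larger one in 56 and 137. What part these sizes had was not tested. Of 160 genes higher in Pou5f1 RNAi and lower in Nanog RNAi, 38.1% were called higher in RA, 24.4% in DMSO and 38.8% in HMBA, and 6.25%, 5.00% and 5.63% were called lower. Of 253 genes lower in Pou5f1 RNAi and higher in Nanog RNAi, 27.3% were called lower in RA, 29.2% in DMSO and 39.5% in HMBA, and 11.5%, 11.9% and 7.91% were called higher. The all-gene shares were 17.7%, 11.3% and 16.3% called higher and 10.5%, 8.51% and 12.6% called lower. The median log ratio of the first of these classes was 0.31 in RA, 0.19 in DMSO and 0.28 in HMBA, and that of the second was -0.14, -0.17 and -0.27, beside 0.03, 0.03 and 0.01 for all genes. Array by array, the class median lay on its side of the all-gene median on 6 of 6 arrays of each treatment for all 4 classes, except for the genes higher in Pou5f1 RNAi and lower in Nanog RNAi in DMSO, with 5 of 6. Genes of a class are not independent replicates, and these shares carry no test. Without day 6 the shares called higher among genes higher in both were 29.1% in RA, 10.6% in DMSO and 29.5% in HMBA, against 8.90%, 3.39% and 9.003% of all genes. Without day 6 the genes lower in both were called lower in 19.4%, 14.9% and 22.3%, against 4.53%, 3.27% and 5.53% of all genes. Of the genes higher in Pou5f1 RNAi and lower in Nanog RNAi 23.8%, 11.9% and 21.3% were then called higher, and of the reverse kind 14.8%, 14.5% and 21.9% were called lower, with the same all-gene shares. Without day 4 the DMSO shares called higher were 16.6% of the genes higher in both and 15.4% of the genes higher in Pou5f1 RNAi and lower in Nanog RNAi, against 5.47% of all genes. The DMSO share called lower was then 19.2% of the genes lower in Pou5f1 RNAi and higher in Nanog RNAi, against 4.30% of all genes. In HMBA 21.0% of the genes higher in Pou5f1 RNAi and lower in Nanog RNAi were then called higher, against 8.92% of all genes.

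**Figure D5:**
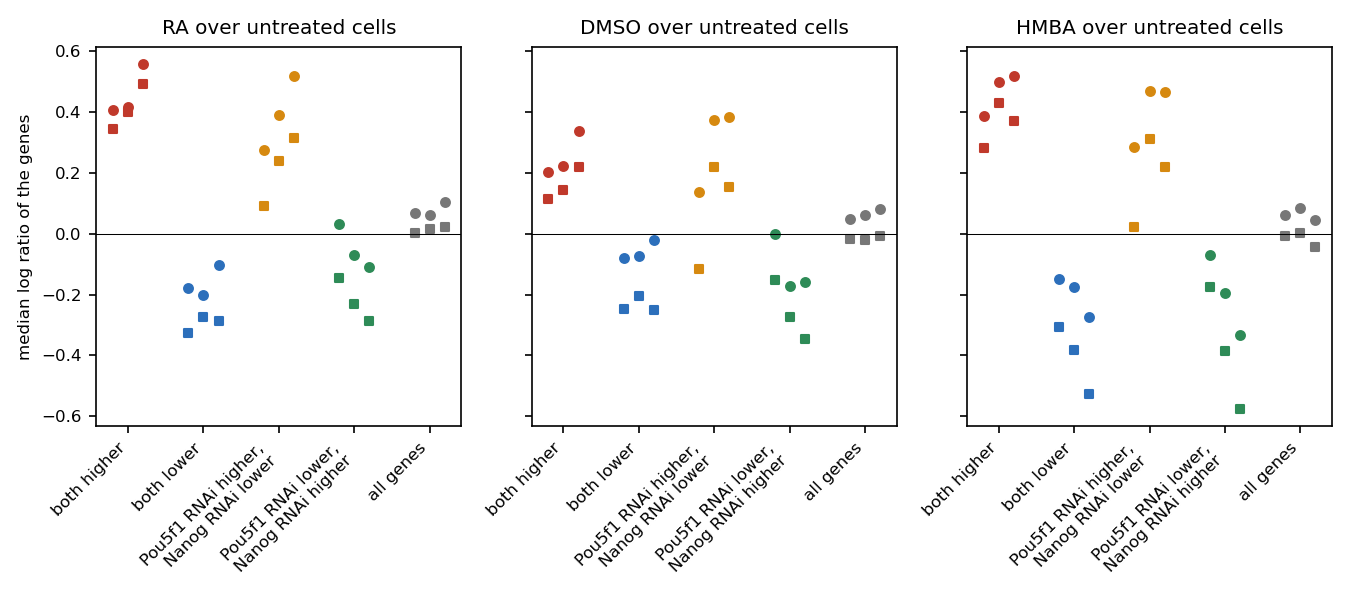
Median log ratio over untreated cells of the genes of each class on each of the 18 ratio arrays, by treatment; days 2, 4 and 6 run left to right within a class, and circles and squares are the 2 dye orientations. Genes higher in both knockdowns lie above the grey all-gene points and genes lower in both lie below them. Relative to the all-gene points, the opposite classes lie on the side of their Pou5f1 RNAi change on all but 1 DMSO array.

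Single leading genes are given for RA, DMSO and HMBA in turn. Krt8 had log ratios of 3.01 in RA, 1.36 in DMSO and 3.53 in HMBA, and Id3 had 1.86, 0.93 and 1.88, each called higher. Fgf4 fell by 2.22, 2.45 and 2.24 and Tcl1 by 1.60, 2.24 and 2.21. Igf2, the gene with the widest Pou5f1 RNAi change of the 12 leading ones, had -0.38, 0.00 and 0.04, called lower in RA (limma adjusted p = 0.045) and not called in DMSO and HMBA. S100a6 was called higher in RA and HMBA (0.66 and 1.69) and lower in DMSO (-0.41). Of the opposite genes, Scd1 had 1.82, 1.32 and 1.76, and Igfbp4 had 2.51, 0.53 and 1.82, each called higher. Gbx2 had -0.90, -1.67 and -1.97, each called lower, whereas Lpar4 was called higher in all 3 treatments (0.74, 1.00 and 0.40), the direction of its change in Nanog RNAi.

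Promoter letters were compared between the classes because Pou5f1 is known to read the octamer ATGCAAAT. RefSeq windows of GRCm38.p6, from 250 bases before to 50 bases after a gene's start, were found for 14461 tested genes, some with several starts. The octamer stood on either strand in 14 of 363 windows (3.86%) of genes lower in Pou5f1 RNAi and higher in Nanog RNAi, and in 22 of 1037 (2.12%) of genes lower in both. It stood in 15 of 1356 windows (1.11%) of genes higher in both and in 2 of 216 (0.926%) of genes higher in Pou5f1 RNAi and lower in Nanog RNAi, beside 1.39% of all windows. CATTCC, read by TEAD factors, stood in 12.8%, 12.6%, 13.4% and 14.6% of windows of the genes higher in both, lower in both, higher in Pou5f1 RNAi with Nanog RNAi lower, and lower in Pou5f1 RNAi with Nanog RNAi higher, beside 13.2% of all. CCATTA, a homeobox core, stood in 4.42%, 5.30%, 3.24% and 4.13% of the same windows, beside 5.60% of all. CATTCC and CCATTA can overlap by the letters CC, and a match describes the window without showing that a factor binds there.

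The windows of 4 list members are shown because they hold the octamer, in capitals as read on the gene's strand, and because the members lie in different classes; they were chosen after the letters had been found. Zfp42 (Rex1, a zinc finger gene of ES cells, chr8:43306960-43307259, minus strand) was lower in both, by 1.79 in Pou5f1 RNAi and by 0.59 in Nanog RNAi. Pim2 (chrX:7878056-7878355, plus strand) and Gadd45a (chr6:67037358-67037657, minus strand) were lower in Pou5f1 RNAi and higher in Nanog RNAi and hold it on both strands. Cdx2 (chr5:147307200-147307499, minus strand) was higher in both.
Zfp42: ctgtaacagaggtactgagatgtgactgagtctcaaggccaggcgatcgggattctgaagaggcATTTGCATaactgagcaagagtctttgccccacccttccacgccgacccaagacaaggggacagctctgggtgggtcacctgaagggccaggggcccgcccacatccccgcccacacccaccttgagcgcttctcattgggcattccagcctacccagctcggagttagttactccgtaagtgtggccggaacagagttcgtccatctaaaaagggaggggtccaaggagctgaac
Pim2: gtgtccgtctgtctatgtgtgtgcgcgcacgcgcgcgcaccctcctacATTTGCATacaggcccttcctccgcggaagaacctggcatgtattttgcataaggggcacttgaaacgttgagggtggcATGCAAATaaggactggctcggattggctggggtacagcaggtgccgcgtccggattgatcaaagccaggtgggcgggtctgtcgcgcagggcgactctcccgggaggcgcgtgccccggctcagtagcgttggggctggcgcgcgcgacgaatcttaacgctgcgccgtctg
Gadd45a: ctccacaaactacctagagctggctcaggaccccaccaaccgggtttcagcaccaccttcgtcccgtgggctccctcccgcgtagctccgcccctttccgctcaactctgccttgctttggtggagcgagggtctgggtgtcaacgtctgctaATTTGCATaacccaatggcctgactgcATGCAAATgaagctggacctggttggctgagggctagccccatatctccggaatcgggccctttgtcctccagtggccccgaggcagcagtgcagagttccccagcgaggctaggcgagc
Cdx2: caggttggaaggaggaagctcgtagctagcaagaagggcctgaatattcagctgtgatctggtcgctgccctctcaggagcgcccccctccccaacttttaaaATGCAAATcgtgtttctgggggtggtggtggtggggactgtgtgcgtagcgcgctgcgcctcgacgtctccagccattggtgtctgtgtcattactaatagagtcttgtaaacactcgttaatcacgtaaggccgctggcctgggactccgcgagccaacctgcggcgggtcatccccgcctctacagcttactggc
The octamer began 186 bases before the start of Zfp42, 202 and 123 before that of Pim2, 97 and 70 before that of Gadd45a and 147 before that of Cdx2.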

How the data were processed

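The 14 RNAi arrays were analysed from the deposited log2 values, which the authors made with RMA, per the submitters' processing notes; its software and version are not given in the sources used here. The ratio arrays were analysed from the authors' deposited log ratios, taken as log2, of treated over untreated cells. Names came from the platform gene tables: 34945 of 45037 probe sets had exactly 1 gene name, 932 several and 9160 none. Of 21106 ratio probes, 16657 had a value in every treatment and day. RNAi arrays correlated at 0.990 to 0.997 within a group. Tests used limma 3.58.1 under R 4.3.3, with lmFit and eBayes on the 14 RNAi arrays together and on the 18 ratio arrays together, no block, and Benjamini-Hochberg adjustment over all probe sets or probes. The script was tested on simulated data. Arrays were taken as unpaired: 5 of 13 pairs with the same replicate number had deviations correlated above 0.1.

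Members and the 21 gene lists were chosen with earlier results of these data known. Genes named are Pou5f1, Nanog, the 12 genes of each shared class and 10 of each opposite class with the largest smaller change whose arrays did not overlap, leaving out clone names, and up to 4 list members per class; others were chosen after their values were seen. Of 173 genes tabulated, 92 had another probe set; 91 of those 178 probe sets fell in the same class and 0 were called the other way in either knockdown. Alternatives were the replicate block, equal array weights in the pool, a filter at log2 6, a trended robust prior, limma's array weights, median centring, other thresholds, another probe set per gene, each array left out, and for the ratio arrays the dye term, complete probes, and each day or orientation left out. Plots came from matplotlib 3.10.9 (Python 3.11.15).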

Additional observations from a re-analysis of the deposited data

Results flagged for a closer look

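Among 519 groups of 4 or 5 arrays, each the log2 levels of 1 of 173 tabulated genes in 1 group, 24 held an array that stood apart, with a gap to its nearest neighbour that took more of the group's range than Dixon's critical value at the 95% level. Chance gives about 1 in 20 such groups. Each gap share is followed by the level of the array and, after a slash, of its nearest neighbour.

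In Pou5f1 RNAi the highest array stood apart for Gli2 (0.902, 6.41/5.94), Mcf2 (0.846, 4.28/3.90), Plac1 (0.858, 10.52/10.30), Ccn1 (0.852, 8.91/8.70), Hspa5 (0.850, 12.22/12.08), Chac1 (0.951, 5.38/5.13) and Ddit3 (0.848, 8.02/7.85). The lowest Pou5f1 RNAi array stood apart for Cobl (0.928, 6.43/6.55), Pou3f1 (0.914, 5.78/6.13), Pim2 (0.945, 5.94/6.01) and Lefty1 (0.955, 6.14/6.65). Hspa5, Chac1 and Ddit3 belong to the list of amino acid supply and the stress response.

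In Nanog RNAi the highest array stood apart for Tdgf1 (0.7101, 11.38/11.26), Krt18 (0.739, 9.71/9.45), Ift43 (0.748, 5.68/5.54), Cdx2 (0.807, 5.19/4.72), Snai1 (0.721, 6.57/5.82) and Top2a (0.724, 11.17/11.01). The lowest Nanog RNAi array stood apart for Klf4 (0.818, 8.98/9.33), Lpar4 (0.747, 7.41/7.71), Col4a1 (0.799, 9.11/9.52) and Stmn2 (0.842, 10.31/10.55). In vector the highest array stood apart for Id3 (0.776, 7.62/7.32) and Ift43 (0.810, 6.97/6.72), and the lowest for Krt7 (0.894, 4.03/4.21).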

How the results depend on the processing

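The pooled comparison called between 3068 and 3437 genes higher and between 2540 and 2913 lower when each array was left out in turn. The same runs gave 1050 to 1373 genes higher in both, 852 to 1058 lower in both, 156 to 217 higher in Pou5f1 RNAi and lower in Nanog RNAi, 291 to 353 of the reverse kind, and 3020 to 3556 higher and 3073 to 3449 lower in Pou5f1 RNAi than in Nanog RNAi. An adjusted p under 0.01 left 658 genes lower in both and 111 and 213 in the opposite classes. A minimum of 1 log2, which small changes cannot meet by construction, left 412 pooled genes higher and 191 lower, 85 and 47 in the shared classes, 1 and 13 in the opposite ones, and 758 higher and 575 lower between knockdowns. The pooled change, the change in each knockdown and their difference were followed for 173 genes, 15345 values in all. Of these 458 lost a call, 251 of them at the 1 log2 minimum, 40 at an adjusted p under 0.01 and 127 with 1 array left out, 42 gained one, and 1 called value changed sign: Ddit4l in Pou5f1 RNAi was 0.20 with its most variable probe set (limma adjusted p = 0.12). Among values given above as not called, the pooled change of Gata4 was called with array weights (-0.23, limma adjusted p = 0.044). With the most variable probe set, the pooled changes of Scd1 (0.41, limma adjusted p = 0.0015) and Elf5 (0.27, limma adjusted p = 0.0044) were called. That probe set of Elf5 was also called lower in Nanog RNAi (-0.25, limma adjusted p = 0.033). The pooled change of Dusp16 was called with the replicate block (limma adjusted p = 0.019) and the filter at log2 6 (limma adjusted p = 0.043). It was called too without Nanog RNAi array 2 or vector array 5 (limma adjusted p = 0.040 and 0.036).

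The labels give no pairing, and the replicate numbers were not used as one: 5 of 13 same-numbered pairs had deviations correlated above 0.1, from -0.25 to 0.44. As a hint from the data, all 5 pairs of Nanog RNAi and vector were positive (0.089 to 0.44), and for 9 of 14 arrays the closest match bore the same number. With the replicate block 3694 genes were higher and 3211 lower when pooled, 1486 and 1156 stood in the shared classes, 262 and 383 in the opposite classes, and 3740 were higher and 3502 lower in Pou5f1 RNAi than in Nanog RNAi. It kept 1228 of 1234, 988 of 1005, 200 of 201 and 339 of 346 genes of the classes.

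On the ratio arrays a dye term raised the shares of genes higher in both that were called higher to 66.3% in RA, 46.5% in DMSO and 66.2% in HMBA, against 31.1%, 26.0% and 28.8% of all genes. The genes higher in Pou5f1 RNAi and lower in Nanog RNAi then had 57.5%, 48.1% and 58.1% called higher. Called lower were 48.3%, 39.0% and 56.2% of the genes lower in both, against 22.4%, 19.9% and 25.0% of all genes. Of the genes lower in Pou5f1 RNAi and higher in Nanog RNAi, 41.9%, 44.7% and 58.1% were called lower. The median of the genes lower in both was -0.28 in RA and -0.24 in DMSO without orientation 1, and -0.19 and -0.11 with both orientations. Without orientation 2 it was -0.13 and -0.05. For the genes higher in Pou5f1 RNAi and lower in Nanog RNAi, the DMSO median was 0.07 without orientation 1 and 0.30 without orientation 2. With an orientation left out, medians alone were computed. The model used here takes each treatment and day as its own group, and 1 array per group leaves it no spread for a call. The cause of these shifts was not tested. The number of arrays limits the precision of every value.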
